A study of Mus musculus with 24 samples.

Results

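The genes described here are 37 genes of the heat shock response and the unfolded protein response, taken as a fixed list of names out of 21755 protein-coding genes on chromosomes 1 to 19 and X. They comprised 10 cytosolic chaperones and co-chaperones, 3 mitochondrial chaperones, 13 chaperones and folding enzymes of the endoplasmic reticulum (ER), 4 sensors and transcription factors of the unfolded protein response, and ATF4 with 6 of its targets. For each gene, the acetylation of histone H3 on lysine 9 (H3K9ac), a mark of active promoters, was read from peak lists in windows that reach 1 kb to each side of the annotated transcription start sites (TSS). For 9 of the 37 genes another coding entry had a TSS within the window, so their peaks may belong to either. These were Pdia3 (Catsper2, 17 bp away), Ddit3 (a second entry of that name, 35 bp), Ppp1r15a (Plekha4, 62 bp) and the pair Hspd1 and Hspe1 (71 bp). The others were Dnajb1 (Tecr, 222 bp), Hsp90b1 (Ttc41, 302 bp), Creld2 (Alg12, 328 bp) and Hspa1a (Hspa1l, 547 bp).

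The lists came from ChIPmentation, a form of chromatin immunoprecipitation in which the Tn5 transposase adds the sequencing adapters, on 4T1 spheroids, 4T1 being a mammary carcinoma line of the mouse. There were 12 H3K9ac libraries, 3 each from 4 groups collected on day 5: scramble, KAT2a knockout, and CPT1a knockout grown without or with acetate. CPT1a is the enzyme that lets long-chain fatty acids enter mitochondria, KAT2a is a histone acetyltransferase, and the comparisons ask how promoter acetylation differs when either is lost and when acetate is supplied to CPT1a knockout cells. The lines were made by CRISPR with guides to 2 exons of each targeted gene in cells with inducible Cas9, and the guide behind each library is not named in the labels. The medium of the scramble, CPT1a knockout and KAT2a knockout spheroids held 75 µM palmitate, while the labels of the acetate group give 5 mM acetate alone, though a legend in the study has CPT1a-deficient spheroids receiving palmitate whether or not acetate was added. The control guide of the scramble cells had no target in the mouse genome, and all lines had been selected after infection with a guide. The labels do not say that the 3 libraries of a group came from separate cultures, so the p-values below measure the spread between libraries only, and they name no batches, so batch and group cannot be told apart.

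Unfolded proteins in the cytosol release the heat shock factor HSF1, which binds repeated nGAAn units in the promoters of chaperone genes. In the ER, unfolded proteins draw the chaperone BiP away from 3 sensors, IRE1α, PERK and ATF6. IRE1α splices the mRNA of XBP1, ATF6 is cleaved to a transcription factor, and PERK slows translation while favouring that of ATF4, which raises genes of amino acid synthesis and of the stress-induced cell death programme.

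Sequence elements of these pathways were looked for on both strands in the RefSeq promoter entries (GRCm38.p6, 250 bases before to 50 after each start), which held 31 of the 37 genes. The heat shock element, 3 alternating units written as GAANNTTCNNGAA or TTCNNGAANNTTC, was in the entries of Hspd1, Hspe1 and Hsph1, beside 0.603% of all 32851 entries. Hspd1 and Hspe1, which encode the mitochondrial chaperonin and its co-chaperonin, are read in opposite directions from starts 71 bp apart and share a single stretch with 2 overlapping matches at chr1:55088054-55088081, shown on the strand of Hspe1 with the matched bases in capitals.
Hspe1 and Hspd1 heat shock element: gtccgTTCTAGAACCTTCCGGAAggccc

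The ER stress element, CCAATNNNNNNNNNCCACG, was in 0.119% of all entries and in those of 7 of the 31 genes: Hspa5, Hsp90b1, Calr, Canx, Pdia6, Dnajc3 and Creld2. It is the site that ATF6 binds together with NF-Y. The related element ERSE-II, ATTGG and CCACG with any base between them (0.0365% of entries), was in that of Herpud1, the UPR element TGACGTGG (0.676%) was in none of the 31, and the amino acid response element TGATGNAA (3.97%) was in those of Asns, Chac1, Trib3 and Herpud1. A match is a description of the letters and not evidence of binding. The matches of 4 genes whose peaks are described below follow in capitals with 5 bases to each side on the strand of the gene, at chr2:34772020-34772048 (plus strand) for Hspa5, chr11:50325795-50325823 (minus) for Canx, chr12:17266486-17266514 (plus) for Pdia6 and chr6:7693220-7693237 (minus) for Asns.
Hspa5 ER stress element: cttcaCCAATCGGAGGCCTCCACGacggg
Canx ER stress element: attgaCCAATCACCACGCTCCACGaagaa
Pdia6 ER stress element: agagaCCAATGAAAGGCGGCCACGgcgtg
Asns amino acid response element: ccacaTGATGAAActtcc

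A promoter peak was called in all 12 libraries for 35 of the 37 genes, which is 94.6% beside 49.5% of all protein-coding genes (10777 of 21755). The other two were cytosolic heat shock genes. Hspb1, a small heat shock protein, had no promoter peak in any library, and its nearest peak lay between 7501 and 9627 bp from a start. Hspa1a, one of the pair of inducible HSP70 genes, had a peak in 10 libraries, with a fold enrichment between 3.58 and 8.05, and lacked one in scramble replicate 3 and in CPT1a knockout with acetate replicate 2, where the nearest peak was 6924 and 6564 bp away. Its sequence is close to that of its neighbour Hspa1b, with which it shares 61.3% of its 40-base words, so reads may have been split between them or lost. The peaks of Hspa1a and Hspa1b are uncertain for that reason.

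The lists held between 16212 and 34370 peaks. The calling depth was taken as the smallest background coverage recovered among the peaks of each list. How the inputs entered the calling is not given, so it need not be the coverage of the H3K9ac library itself. The calling depth was 1.87 to 2.52 in scramble, 0.554 to 1.70 in CPT1a knockout, 1.02 to 1.81 in KAT2a knockout and 0.660 to 1.91 in CPT1a knockout with acetate. The 8 epithelial carcinoma markers that were checked, among them Krt8, Krt18 and Epcam, had a promoter peak in all 12 libraries, and the 6 markers of leukocytes, endothelium and hepatocytes (Ptprc, Cd3e, Cd79a, Pecam1, Cdh5 and Alb) in 0.

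The level of a promoter was taken as the rank percentile, within its library, of the highest fold enrichment among its peaks. Fold enrichment is the ratio of the fragment pileup at a summit to the local background, and 100 is the strongest of the 10777 genes called in every library. The median over the 35 genes was 72.4, beside 52.6 over all 10777, where each gene is summarised by its median over the libraries. The mitochondrial chaperones stood highest, with a median of 95.6, followed by the ER chaperones and folding enzymes (76.4), the cytosolic chaperones (75.9), the sensors and transcription factors (67.5) and ATF4 with its targets (57.6). The mitochondrial role holds 3 genes, of which Hspd1 and Hspe1 share their peaks, so its median is the value of that shared region.

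Hspa9, the mitochondrial HSP70, had the highest median rank of the 35 genes, 99.2. Its rank was 83.7, 80.9 and 99.4 in scramble, 99.6, 99.5 and 99.9 in CPT1a knockout, 99.6, 98.1 and 99.1 with acetate and 92.8, 99.3 and 99.1 in KAT2a knockout. Scramble replicates 1 and 2 were the 2 libraries below 90. Hspd1 and Hspe1 gave the same value in each library, since they share their peak: 85.1, 91.7 and 96.0 in scramble, 98.6, 91.3 and 99.2 in CPT1a knockout, 80.4, 95.4 and 96.3 with acetate and 96.5, 95.9 and 71.7 in KAT2a knockout. The groups overlapped, and neither gene passed the test in any comparison.

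Among the cytosolic chaperones, Hspa8, the constitutive HSC70, had a median rank of 92.5, Hspa4 91.2, Hsp90ab1 87.8, Hsp90aa1 79.3, Hsph1 72.4, Dnajb1 65.6 and Dnaja1 63.4. Hspa1b was far lower at 28.9. Of the ER genes, Canx (92.0), Hsp90b1 (88.6), Hspa5 (86.9), Pdia3 (83.5) and Pdia6 (80.6) stood above Pdia4 (77.3), Manf (76.4), Dnajc3 (71.5), Calr (70.0) and Dnajb9 (63.1), while Creld2 (48.4) and Herpud1 (47.2) were lower. Sdf2l1, which encodes an ER protein of a BiP complex, was the lowest of all 35 genes at 19.8, with a range from 4.98 to 31.7.

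The sensors ranged widely. Xbp1 had a median rank of 99.1, Atf6 78.2, Ern1 (IRE1α) 56.8 and Eif2ak3 (PERK) 37.5. Atf4 stood at 88.9, above its targets Asns (58.6), Ddit3 (57.6), Trib3 (57.6), Ppp1r15a (54.0), Sesn2 (49.98) and Chac1 (42.5). A rank varied over the 12 libraries with a median SD of 16.3 percentile points for these genes, against 14.01 for all genes tested, so differences of this size between neighbours in the order are within the spread between libraries.

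**Figure D1:**
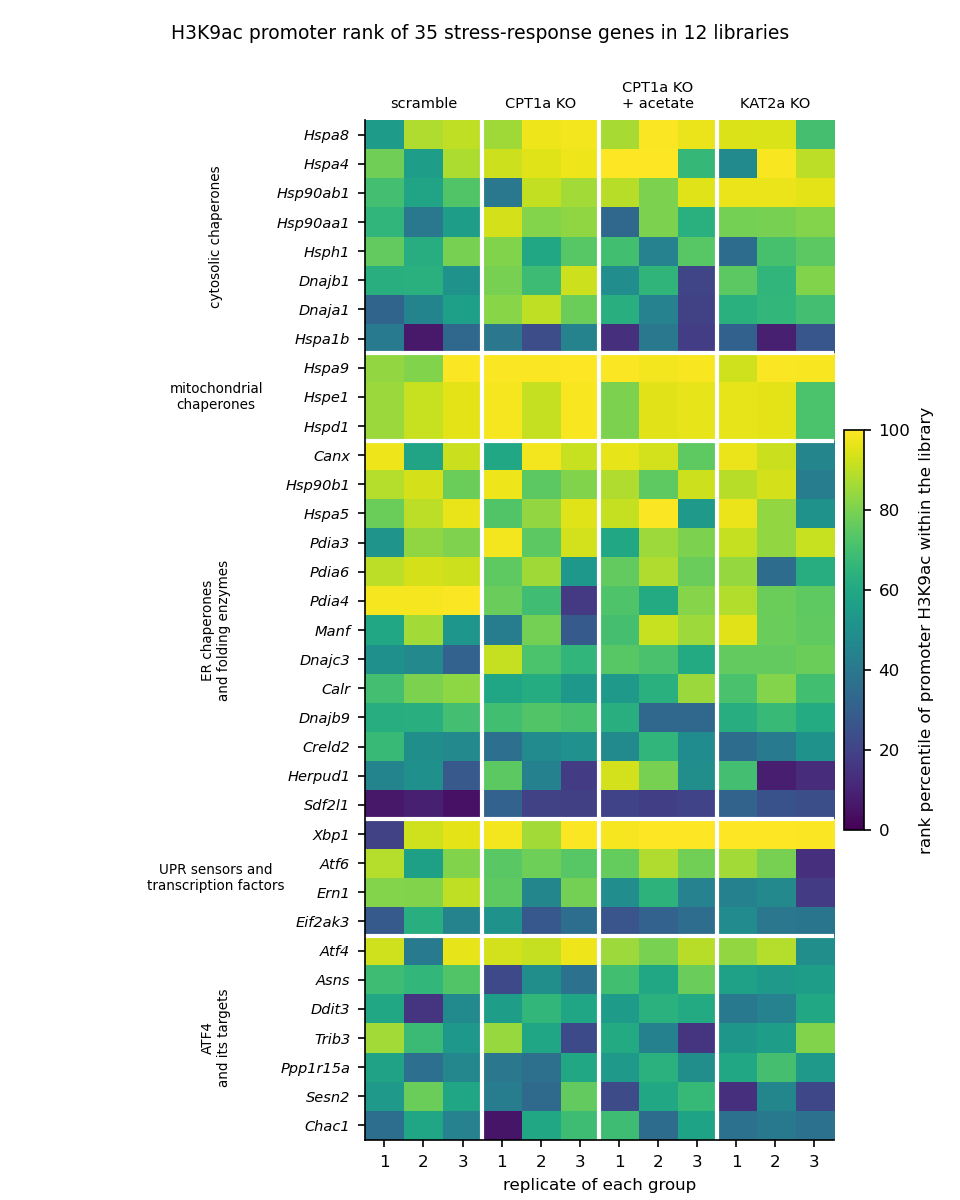
Rank percentile of the strongest promoter peak (colour, 0 to 100) of each of the 35 genes (rows, grouped by role) in the 12 libraries (columns, 3 replicates of each of 4 groups). Hspa9 and Xbp1 are near the top of the scale in most libraries, while Sdf2l1 is between 4.98 and 31.7 in all of them.

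In CPT1a knockout, 5 of the 35 genes differed in rank from scramble (14.3%; limma, adjusted p under 0.05), against a background of 9.84% of all 10777 genes. Dnaja1, Dnajc3 and Sdf2l1 ranked higher, and Pdia4 and Asns lower. The remaining 30, among them all 3 mitochondrial chaperones and all 4 sensors and transcription factors, did not pass the test. The median difference over the 35 genes was 4.51 percentile points, beside 0.22 over all genes. By role it was 18.5 for the 8 cytosolic and 5.44 for the 3 mitochondrial chaperones. For the 13 ER genes it was -2.34, for the 4 sensors and transcription factors -3.65 and for ATF4 with its targets -2.01. No test was made of the roles.

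Pdia4 encodes a disulfide isomerase of the ER lumen. Its rank was 98.5, 98.8 and 99.3 in scramble and 77.1, 69.4 and 16.8 in CPT1a knockout, so the groups lay apart. The mean fell by 44.4 percentile points (98.9 ± 0.430 to 54.5 ± 32.8, SD, n = 3 each), with an adjusted p of 0.00443 in limma and an exact permutation p of 0.1, the smallest that 3 against 3 libraries can give. In the fold enrichments themselves, scramble held 36.2, 39.7 and 45.7 and the knockout 35.3, 36.8 and 11.7. The lowest knockout value came from replicate 3, where the local background was 3.61 times the calling depth. Without that library the adjusted p was 0.01002, and with each of the 6 libraries left out in turn it lay between 0.00509 and 0.0241.

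The 250 bases before the start of Pdia4 (chr6:47813513-47813762, minus strand) are shown because this gene had the lowest adjusted p of rank among the 35. A peak covered part of them in 6 libraries and all of them in 0. None of the elements above was found in them.
Pdia4 promoter: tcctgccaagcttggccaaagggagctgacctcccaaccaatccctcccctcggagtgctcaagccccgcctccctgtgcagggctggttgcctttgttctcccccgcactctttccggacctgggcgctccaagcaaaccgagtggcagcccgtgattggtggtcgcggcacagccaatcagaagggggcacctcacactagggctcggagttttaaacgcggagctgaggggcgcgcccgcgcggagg

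Dnajc3 encodes an ER co-chaperone of BiP. It ranked 50.3, 47.1 and 31.6 in scramble and 91.4, 71.6 and 66.0 in CPT1a knockout. All 3 knockout libraries lay above all 3 scramble libraries, and the mean was 33.3 percentile points higher (43.0 ± 10.0 against 76.3 ± 13.3), with an adjusted p of 0.0426 in limma. The 250 bases before its start (chr14:118937682-118937931, plus strand) carry the ER stress element in capitals, and a peak covered part of them in 10 libraries.
Dnajc3 promoter: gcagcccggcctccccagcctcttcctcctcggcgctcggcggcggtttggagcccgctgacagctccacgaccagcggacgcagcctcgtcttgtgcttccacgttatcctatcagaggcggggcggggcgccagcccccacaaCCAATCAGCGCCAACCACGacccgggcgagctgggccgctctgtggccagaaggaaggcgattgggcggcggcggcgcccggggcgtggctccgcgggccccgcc

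Dnaja1, a cytosolic co-chaperone of HSP70, ranked 32.4, 45.2 and 56.5 in scramble and 82.1, 90.5 and 77.4 in CPT1a knockout. The mean was 38.7 percentile points higher in the knockout (44.7 ± 12.1 against 83.4 ± 6.66), with an adjusted p of 0.0345 in limma. Sdf2l1 was low in both groups, at 6.63, 8.62 and 4.98 in scramble and 31.6, 19.7 and 19.1 in the knockout. Its mean was 16.7 percentile points higher in the knockout (6.74 ± 1.82 against 23.5 ± 7.04), with an adjusted p of 0.0460.

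Asns, which encodes asparagine synthetase and is a target of ATF4, ranked 68.8, 66.0 and 72.9 in scramble and 22.3, 49.5 and 37.4 in CPT1a knockout. The mean fell by 32.9 percentile points (69.3 ± 3.47 to 36.4 ± 13.6), with an adjusted p of 0.0427 in limma. The local background was 2.35 times the calling depth in the lowest of these, replicate 1, and 1.81 times in replicate 3. When genes were ranked by pileup instead, the groups overlapped and the adjusted p was 0.161.

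Leaving out 1 library kept the call of Pdia4 in each of the 6 cases, that of Dnajc3 only without CPT1a knockout replicate 3 (adjusted p 0.0389) and that of Asns only without CPT1a knockout replicate 2 (0.0341). It ended those of Dnaja1 (0.0505 to 0.119) and Sdf2l1 (0.0652 to 0.138) in all 6. With the trend of rank on GC content removed, Dnajc3 (adjusted p 0.157), Dnaja1 (0.112), Sdf2l1 (0.323) and Asns (0.191) no longer passed.

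Counted without a model, the ranks of CPT1a knockout and scramble did not overlap for 12 of the 35 genes (34.3%), against 30.9% of all genes. The 7 that lay higher in the knockout were Hspa4, Hsp90aa1, Dnaja1, Dnajb1, Hspa9, Dnajc3 and Sdf2l1, and the 5 that lay lower were Calr, Pdia4, Pdia6, Ern1 and Asns. The share was close to that of all genes. Hsp90aa1, the inducible HSP90, is named after its values were seen: its mean was 53.9 in scramble and 86.2 in the knockout, and it did not pass (adjusted p 0.0563 in limma).

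**Figure D2:**
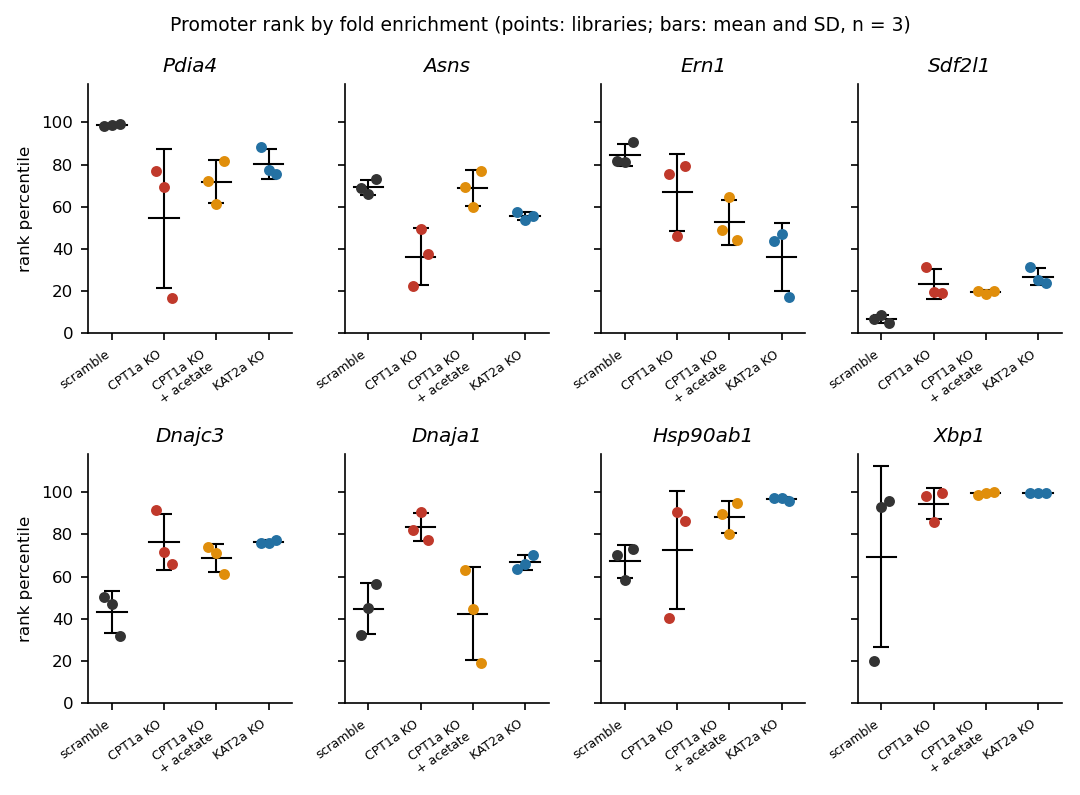
Rank percentile (vertical axis, 0 to 100) of 8 of the genes in each library (points, 3 per group), with the group mean. Pdia4 is above 98 in the 3 scramble libraries and at 88.3 or below in the others, while Sdf2l1 is at 8.62 or below in scramble and at 18.7 or above in the others.

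KAT2a knockout differed from scramble in rank for 3 of the 35 genes (8.57%), against 3.68% of all genes. Hsp90ab1 and Sdf2l1 ranked higher and Ern1 lower. Both comparisons use the same 3 scramble libraries, so they are not independent. The median difference was -2.96 percentile points over the 35 genes and 0.10 over all genes.

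Ern1 encodes the sensor IRE1α. It ranked 81.5, 81.2 and 90.5 in scramble and 44.0, 46.9 and 17.4 in KAT2a knockout, so that the groups lay far apart. The mean fell by 48.3 percentile points (84.4 ± 5.27 to 36.1 ± 16.3), the largest difference of any of these genes among those that passed, with an adjusted p of 0.0280 in limma. In the lowest library, KAT2a knockout replicate 3, the local background was 1.96 times the calling depth. By pileup alone the KAT2a knockout libraries stood at 28.7, 28.9 and 22.4 against 63.1, 62.7 and 79.7 in scramble.

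Hsp90ab1, the constitutive cytosolic HSP90, ranked 70.3, 58.3 and 72.9 in scramble and 97.3, 97.1 and 95.7 in KAT2a knockout. The mean was 29.5 percentile points higher (67.2 ± 7.75 against 96.7 ± 0.841), with an adjusted p of 0.0465 in limma. The other call was Sdf2l1, which stood at 31.7, 25.2 and 23.9 in KAT2a knockout, 20.2 percentile points above scramble, with an adjusted p of 0.0459.

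None of these 3 calls remained when any 1 of the 6 libraries was left out, with adjusted p-values of 0.05001 to 0.0993 for Ern1, 0.0901 to 0.114 for Hsp90ab1 and 0.0716 to 0.142 for Sdf2l1. With the GC trend removed, Hsp90ab1 (0.0907) and Sdf2l1 (0.138) also lost their calls. Over all genes the count of calls dropped as well, from 397 to between 36 and 224. The groups did not overlap for 13 of the 35 genes (37.1%), 8 higher and 5 lower in KAT2a knockout, against 29.3% of all genes.

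Acetate was compared with CPT1a knockout alone to see how promoter acetylation differs when it is supplied. None of the 35 genes passed the test of rank, nor did any of all genes (0.0%). At an unadjusted p under 0.05 there were 6 of the 35 genes, beside 9.33% of all genes, and the smallest adjusted p of the 35 was 0.337 in limma. When genes were ranked by pileup, limma called 256 of all genes and 2 of the 35, Hsp90aa1 and Dnaja1, both lower with acetate.

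The ranks of these 2 groups did not overlap for 6 of the 35 genes (17.1%), against 14.2% of all genes. Asns lay higher with acetate, at 69.6, 59.9 and 77.0. Hsp90aa1, Dnaja1, Dnajb1, Dnajb9 and Atf4 lay lower. Dnaja1 stood at 63.2, 44.5 and 19.2 with acetate, where the lowest value, in replicate 3, had a local background of 2.08 times the calling depth.

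Against scramble, the acetate group differed in the rank of 1 of the 35 genes (2.86%), against 5.33% of all genes. Pdia4 was lower, at 72.4, 61.3 and 81.9, and its mean fell by 27.0 percentile points (98.9 ± 0.430 to 71.9 ± 10.3) with an adjusted p of 0.0212 in limma. That call held without scramble replicate 2 (0.0485) or acetate replicate 3 (0.0473) and was lost without each of the other 4 libraries (0.0643 to 0.0888), and also with the GC trend removed (0.126). The groups did not overlap for 7 of the 35 genes (20.0%), 4 higher and 3 lower with acetate, against 31.9% of all genes.

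Xbp1, Hspa5 and Atf4 did not pass the test of rank in any comparison. Xbp1 encodes the transcription factor that IRE1α activates by splicing, and it ranked 19.8, 92.8 and 95.8 in scramble, 98.1, 86.0 and 99.5 in CPT1a knockout, 98.7, 99.7 and 100.0 with acetate and 99.7, 99.8 and 99.5 in KAT2a knockout. The single low value, in scramble replicate 1, had a local background of 3.58 times the calling depth. By pileup that library ranked Xbp1 at 93.5.

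Hspa5 encodes BiP, the main chaperone of the ER. It ranked 77.6, 89.98 and 96.5 in scramble, 72.8, 83.7 and 95.3 in CPT1a knockout, 91.2, 99.3 and 53.6 with acetate and 96.9, 83.8 and 50.9 in KAT2a knockout, so each group held values more than 20 percentile points apart except scramble. By pileup it stood between 98.9 and 99.8 in all 12 libraries. Atf4 ranked 92.9, 41.7 and 96.2 in scramble, 93.0, 91.3 and 97.6 in CPT1a knockout, 85.3, 79.8 and 89.1 with acetate and 83.8, 88.7 and 49.4 in KAT2a knockout.

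The genes called in rank had the following values in the groups not yet given. Pdia4 stood at 88.3, 77.4 and 75.4 in KAT2a knockout, below each scramble library. Ern1 stood at 75.4, 46.0 and 79.1 in CPT1a knockout and at 49.0, 64.6 and 44.3 with acetate, again below scramble. Hsp90ab1 spread over 40.2, 90.7 and 86.3 in CPT1a knockout and stood at 89.4, 80.4 and 95.1 with acetate. Its low value, in CPT1a knockout replicate 1, had a local background of 2.94 times the calling depth. Dnaja1 stood at 63.6, 66.2 and 70.3 in KAT2a knockout and Asns at 57.4, 53.9 and 55.6, which for Asns was below each scramble library and for Dnaja1 above.

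The ranks of 3 genes whose promoters differed in width alone follow. Hspa8 ranked 55.3, 87.9 and 90.6 in scramble, 85.8, 97.5 and 98.3 in CPT1a knockout, 87.0, 99.6 and 97.0 with acetate and 94.9, 94.4 and 70.6 in KAT2a knockout. Eif2ak3 ranked 28.3, 63.1 and 44.8 in scramble, 51.4, 27.4 and 36.3 in CPT1a knockout, 26.6, 31.4 and 35.7 with acetate and 48.1, 39.7 and 38.7 in KAT2a knockout. Sesn2 ranked 54.1, 77.7 and 59.1 in scramble, 41.9, 34.4 and 76.2 in CPT1a knockout, 22.8, 59.9 and 67.1 with acetate and 13.6, 45.9 and 21.7 in KAT2a knockout, where it lay below each scramble library but did not pass the test.

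The width of a promoter was the summed length of its peaks. It was larger for these genes than for all genes tested, with a median of 3267.5 bp against 2348 bp over the libraries. In base pairs, widths were larger in all 3 scramble libraries than in each of the other 9 for 22 of the 35 genes (62.9%), against 41.3% of all genes. The median log2 width of all genes was lower than in scramble by 0.58 in CPT1a knockout, 0.35 in KAT2a knockout and 0.40 in the acetate group. Each library was therefore centred on its median, and the differences below are relative to that shift, in log2 units.

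Relative to other promoters, 6 of the 35 genes differed in width between CPT1a knockout and scramble (17.1%), against 20.2% of all genes. Those of Hspa1b, Ddit3 and Atf4 were wider in the knockout, with a change of sign for Atf4 without centring, and those of Hspa5, Dnajc3 and Canx narrower. In KAT2a knockout, 4 of the 35 differed (11.4%), against 15.9% of all genes, with Hspa1b wider and Hspa5, Canx and Hsp90ab1 narrower. Between acetate and CPT1a knockout, limma called none of the 35 and none of all genes (0.0%), with 3 of the 35 and 699 of all genes at an unadjusted p under 0.05.

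Against scramble, the acetate group had 9 calls among the 35 genes (25.7%), against 16.9% of all genes. Hspa1b, Hspa8, Sdf2l1, Atf4, Ddit3, Chac1 and Sesn2 were relatively wider, though Hspa8, Sdf2l1, Atf4 and Sesn2 changed sign without centring, and Canx and Eif2ak3 were narrower. Of these 7 wider promoters, 4 belong to ATF4 and its targets, a role that holds 7 of the 35 genes tested. Over all genes, 1175 of the 1816 calls were also wider, and no test was made of the roles. Without the centring, the calls among the 35 genes were 27 in CPT1a knockout, all narrower. They were 12 in KAT2a knockout (1 wider) and 14 in the acetate group (1 wider). The same setting gave 6679, 2088 and 3339 calls over all genes, in that order.

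Hspa5 was 7673, 5894 and 7018 bp wide in scramble, 3942, 3764 and 2818 bp in CPT1a knockout, 4494, 4608 and 3498 bp in KAT2a knockout, and 5281, 4426 and 5225 bp with acetate. The scramble libraries held the 3 widest values. The centred difference was -0.40 ± 0.08 (SE) in CPT1a knockout (adjusted p 0.00550 in limma) and -0.36 ± 0.08 in KAT2a knockout (0.0108), and both calls held in each of 12 alternatives.

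Hspa1b, an inducible HSP70 gene, went the other way. It measured 3356, 2115 and 2294 bp in scramble, 3221, 5127 and 2224 bp in CPT1a knockout, 5088, 4957 and 4865 bp in KAT2a knockout, and 5216, 3251 and 4785 bp with acetate. The centred differences from scramble were 0.97 ± 0.19 in CPT1a knockout, 1.32 ± 0.19 in KAT2a knockout and 1.18 ± 0.19 with acetate, with adjusted p-values of 0.00530, 0.00162 and 0.00340 in limma. All 3 calls were lost when only the strongest peak was measured (adjusted p 0.0920, 0.0586 and 0.153), and that of CPT1a knockout without centring (0.222). Its rank overlapped between all groups, at 41.0, 6.91 and 33.8 in scramble, 39.6, 23.6 and 44.8 in CPT1a knockout, 13.6, 40.2 and 18.01 with acetate and 31.0, 8.85 and 26.8 in KAT2a knockout.

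Dnajc3 was 4783, 3411 and 4172 bp wide in scramble and 2210, 1976 and 1790 bp in CPT1a knockout, a centred difference of -0.46 ± 0.13 (adjusted p 0.0250 in limma). Its promoter thus had a higher rank and a narrower peak in the same libraries. Canx, an ER lectin chaperone, measured 5257 ± 553 bp in scramble (SD, n = 3), 2863 ± 402 bp in CPT1a knockout, 3243 ± 266 bp in KAT2a knockout, and 3124 ± 378 bp with acetate, with centred differences of -0.30, -0.35 and -0.35.

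Ddit3, which encodes CHOP, measured 6643, 3108 and 5603 bp in scramble, 5191, 5430 and 4473 bp in CPT1a knockout and 5457, 5047 and 6270 bp with acetate. The low value was that of scramble replicate 2, and without that library the centred difference went from 0.62 to 0.36 in CPT1a knockout (adjusted p 0.0287 in limma) and from 0.60 to 0.34 with acetate (0.0388). The width sums a peak at the start and a separate upstream peak. In scramble replicate 2 the upstream peak began at -1710 bp from the start, and in the other libraries between -4303 and -3243 bp. The mean width of Ddit3 was 5118 bp in scramble, 5031 bp in CPT1a knockout and 5591 bp with acetate. Its rank was 59.7, 15.5 and 47.5 in scramble, 56.0, 66.4 and 59.2 in CPT1a knockout, 54.7, 63.7 and 61.2 with acetate and 40.4, 44.3 and 59.5 in KAT2a knockout. The same scramble library was the lowest in rank, and Ddit3 did not pass the test of rank in any comparison. These ranks come from different sites: the strongest summit lay upstream, between -2563 and -2058 bp from the start, in 8 libraries, and within 615 bp downstream of it in scramble replicates 2 and 3 and KAT2a knockout replicates 2 and 3.

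Atf4 measured 4827, 3756 and 4428 bp in scramble, 3624, 3725 and 3091 bp in CPT1a knockout and 4478, 3240 and 4280 bp with acetate. Its peaks were thus no wider in base pairs than in scramble, and the centred differences of 0.26 (adjusted p 0.0499 in limma) and 0.28 (0.0443) became -0.31 and -0.12 without centring. Sesn2, a stress-induced regulator of mTORC1 and a target of ATF4, measured 2925, 1990 and 2209 bp in scramble and 2448, 1856 and 2617 bp with acetate, a centred difference of 0.37 (0.0439) that was -0.04 without centring. Chac1, an enzyme that degrades glutathione, measured 2788 ± 347 bp in scramble and 2808 ± 233 bp with acetate, a centred difference of 0.42 (0.0301).

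The remaining width calls were those of Hspa8, Sdf2l1, Eif2ak3 and Hsp90ab1. Hspa8 was 6413, 5506 and 5627 bp wide in scramble and 5361, 5149 and 5435 bp with acetate, and Sdf2l1 was 2330, 2190 and 2035 bp wide in scramble and 2056, 1889 and 2156 bp with acetate. Their centred differences were 0.27 and 0.30, with adjusted p-values of 0.0402 and 0.0443 in limma, and without centring they were -0.14 and -0.10. Eif2ak3, the sensor PERK, was 4187, 3803 and 3805 bp wide in scramble and 2430, 2046 and 2784 bp with acetate, with a centred difference of -0.31 (0.0397). The peak of Hsp90ab1 measured 6856, 5503 and 5280 bp in scramble and 4261, 3797 and 3333 bp in KAT2a knockout, with a centred difference of -0.28 (0.0451).

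Leaving out 1 library left between 2 and 6 width calls in CPT1a knockout, between 2 and 5 in KAT2a knockout and between 2 and 7 in the acetate group against scramble. The width calls over all genes under the same omissions are not given here, so a drop cannot be read as particular to these genes. With any 1 library left out, the calls of Hspa5 and Hspa1b held, and those of Atf4 in CPT1a knockout were lost in all 6 cases. Over 12 alternatives, the call of Hsp90ab1 in KAT2a knockout held in 2. With acetate, the calls held in 1 for Atf4, in 3 each for Eif2ak3 and Hspa8, and in 4 each for Sdf2l1, Sesn2 and Chac1. Those of Canx, Dnajc3 and Ddit3 held in 7 to 9.

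**Figure D3:**
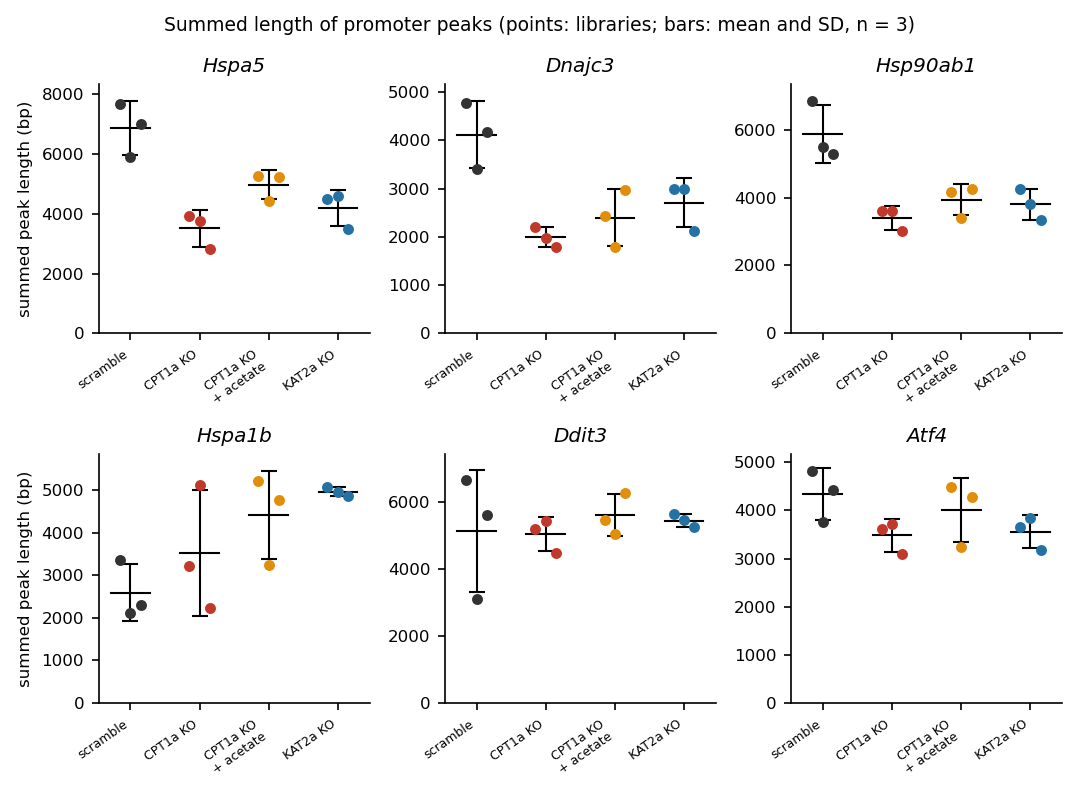
Summed promoter peak width in bp (vertical axis from 0) of 6 genes in each library (points, 3 per group), with the group mean. Hspa5 is widest in the 3 scramble libraries (5894 to 7673 bp), while Hspa1b reaches 4865 bp or more in all KAT2a knockout libraries and 3356 bp at most in scramble.

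The 7 genes with an ER stress element in their promoter entry had a median centred width difference of -0.30 in CPT1a knockout against scramble, where the 22 tested genes whose entries lacked it had 0.04. The values were -0.27 and -0.05 in KAT2a knockout, -0.19 and 0.04 in the acetate group against scramble, and 0.14 and 0.03 between acetate and CPT1a knockout. In each comparison with scramble 5 of the 7 genes were below 0, as were 10 of the 22 in CPT1a knockout, 13 in KAT2a knockout and 10 in the acetate group. These medians describe the genes at hand, and no test was made of them.

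The position of the strongest summit also differed. In the median gene of the 35 it lay 598 ± 89.4 bp from the nearest start in scramble (SD, n = 3), 290 ± 22.3 bp in CPT1a knockout, 325 ± 18.01 bp in KAT2a knockout, and 357 ± 8.50 bp with acetate. Over all genes tested the same medians were 505, 264, 300.3 and 314 bp. In each comparison with scramble the 2 groups did not overlap, for which the exact permutation p is 0.1, the smallest possible. Nor did acetate and CPT1a knockout overlap, at 347 to 363 bp against 273 to 315 bp in the median of the 35 genes and 311 to 316 bp against 261 to 266 bp in that of all genes (exact permutation p 0.1 for both).

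The summit was farther from a start in all 3 scramble libraries than in each of the other 9 for 12 of the 35 genes (34.3%), against 38.0% of all genes: Hspa4, Hsph1, Dnajb1, Hspa5, Dnajb9, Dnajc3, Canx, Pdia3, Pdia6, Ern1, Eif2ak3 and Sesn2. For Ern1 it lay 1100, 947 and 1105 bp downstream in scramble, 187, 230 and 188 bp in CPT1a knockout, 628, 190 and 377 bp in KAT2a knockout, and 315, 254 and 642 bp with acetate. For Hspa4, an HSP110-family chaperone, the summit was upstream of the start in scramble, at -619, -623 and -589 bp, and between 254 and 360 bp downstream of it in the other 9 libraries. In Pdia4 it lay 912, 825 and 842 bp downstream in scramble and 328, 330 and 673 bp in CPT1a knockout, but 843 bp in acetate replicate 1, so this gene did not meet the rule.

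The scramble libraries were also among those with the highest calling depth, at 1.87 to 2.52. Acetate replicate 3 (depth 1.91) and KAT2a knockout replicate 2 (1.81) were close in depth to scramble replicates 2 and 3 (1.87 and 1.90), and their medians over all genes were 311 and 309 bp against 478 and 527 bp. What sets the scramble libraries apart was not tested.

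**Figure D4:**
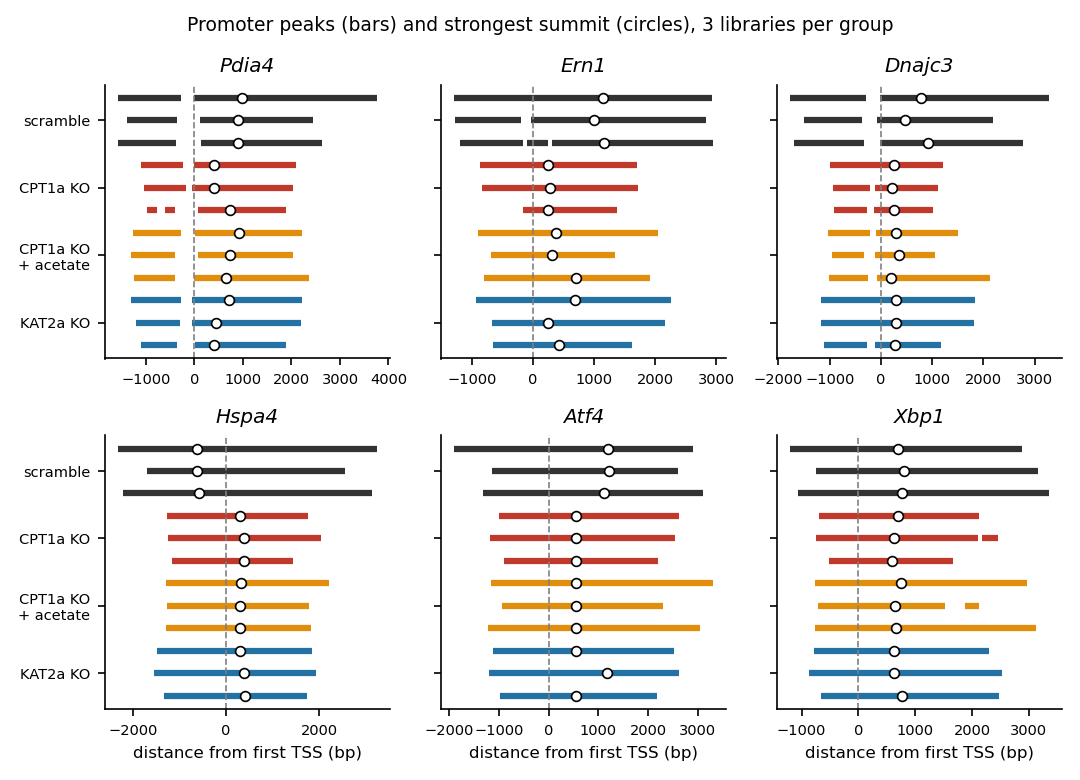
Promoter peaks (bars) and their strongest summit (circles) of 6 genes in the 12 libraries (rows), by distance from the first annotated TSS in bp in the direction of transcription. In Hspa4 the circles of the 3 scramble libraries are upstream of the start and those of the other 9 downstream, and in Pdia4 the bars of all 12 libraries leave a gap around or just before the start, as do those of Dnajc3 in 9.

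In rank, all 3 scramble libraries lay outside the range of the other 9 for 5 of the 35 genes (14.3%), against 12.6% of all genes. Dnajc3 and Sdf2l1 were below it, and Pdia4, Pdia6 and Ern1 above it. Dnajc3 stood at 73.9, 71.4 and 61.0 with acetate and at 75.9, 75.9 and 77.3 in KAT2a knockout, and Sdf2l1 at 19.9, 18.7 and 20.2 with acetate. By pileup the same held for Dnajc3 (29.0 to 31.9 in scramble and 42.3 to 74.8 elsewhere), Sdf2l1 (5.77 to 9.27 and 13.8 to 30.4), Pdia4 (94.4 to 98.0 and 45.7 to 76.5) and Ern1 (62.7 to 79.7 and 22.4 to 57.3).

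Fold enrichment has the local background in its denominator, and single low ranks went with high values of it. Of the 420 values (35 genes in 12 libraries), 35 lay at least 30 percentile points below the median of their gene. In 26 of these (74.3%) the local background was at least 2 times the calling depth, as it was in 20 of the other 385 (5.19%). The low values came from 25 genes and were most frequent in KAT2a knockout replicate 3, with 7, while CPT1a knockout replicate 2 and acetate replicate 2 had none. Atf6 in KAT2a knockout replicate 3 ranked 13.9 with a background of 3.91 times the depth, and 63.6 by pileup.

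**Figure D5:**
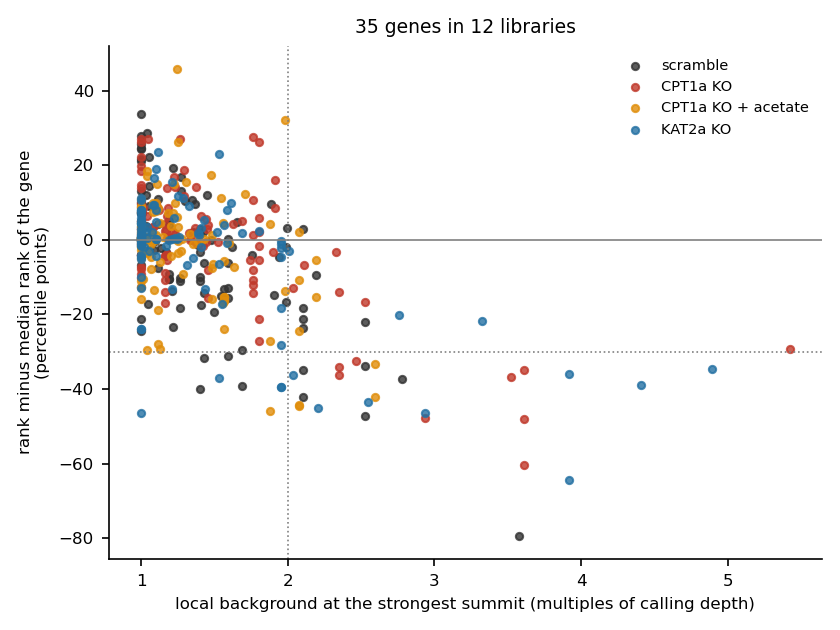
Rank of each of the 35 genes in each of 12 libraries as a difference from the median rank of that gene (vertical axis, percentile points) against the local background at its strongest summit in multiples of the calling depth (horizontal axis). Of the 35 points at or below the line at 30 points under the median, 26 lie at 2 or more times the depth.

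The other genes of these pathways, from a list of 66, were tested in the same way. They included heat shock factors, further co-chaperones, genes of ER-associated degradation, amino acid transporters and enzymes and the other kinases of eIF2α. Of the 66, 64 were found by name in the annotation, and 63 had a promoter peak in all libraries. Their shares of calls lay below the 9.84% of all genes in CPT1a knockout and the 3.68% in KAT2a knockout, and near the 5.33% in the acetate group against scramble. In CPT1a knockout 3 were lower than in scramble (4.76%) and 0 higher: Creb3, an ER-bound transcription factor, at 53.2 ± 20.1 against 94.6 ± 6.04, Atf5, a stress-induced transcription factor, at 62.3 ± 24.0 against 93.5 ± 7.73, and Hspb8, a small heat shock protein, at 64.9 ± 10.6 against 97.0 ± 2.23 (adjusted p 0.0119, 0.0445 and 0.00689 in limma). In KAT2a knockout 1 was lower (1.59%), Eif2s1, which encodes eIF2α, the substrate of PERK, at 70.3 ± 3.48 against 95.2 ± 2.78 (0.0280). None passed between acetate and CPT1a knockout. Against scramble, 4 were lower with acetate (6.35%): Creb3, Hspb8, Eif2s1 and Mthfd2, a mitochondrial folate enzyme, at 39.0 ± 8.94 against 77.2 ± 14.03 (0.0427).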

How the data were processed

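H3K9ac ChIPmentation peak lists of 12 libraries were used, and the 12 inputs are not analysed here. The labels gave the groups and replicate numbers. According to the methods, the authors trimmed reads with fastq-mcf, aligned them to mm10 with BWA and removed duplicates with Picard, while the submitters' processing notes list Bowtie2, MACS2, SAMtools, FastQC and deepTools with the builds mm10 and dm6. Which aligner made the lists, and how the inputs entered the calling, is not given in the sources used here. Each list was called on 1 library. The deposited fold enrichment is a ratio, pileup at the summit over local background, computed by the authors' caller within 1 library. The deposited −log10 p and −log10 q refer to the peak within its own list, and the deposited summit position, the distance from the start of the peak, was set by the same caller. None of these values was scaled between libraries, so ranks within a library were compared. The Drosophila spike-in named in the methods was not used, so the total amount of H3K9ac was not measured. The labels and the methods give different catalogue numbers for the antibody. The lists hold no read counts: a calling depth (0.554 to 2.52), the pileup and the background were recovered by inverting the formulas of MACS2.

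Promoters were windows of 1 kb to each side of every TSS that GENCODE vM21 gives for a protein-coding gene. Its chromosome names and lengths (GRCm38) were compared with the lists. Peaks on chromosome Y were left out. The 10777 genes called in all 12 libraries were tested, and the rank percentile of the highest fold enrichment was turned into normal scores. The log2 of the summed peak width was centred on the median of the library. Both were fitted with limma 3.58.1 in R 4.3.3 over 4 groups, with Benjamini-Hochberg adjustment over all genes and a threshold of 0.05. Single values were also compared by the two-sided exact permutation test over 20 assignments, and the fit was tested on simulated data. Tables and figures were made with Python 3.11.15, numpy 2.4.6, pandas 2.3.3, scipy 1.17.1 and matplotlib 3.10.9. The values of every library are given for members past the threshold in rank or width (of 16, the 14 with the largest difference in rank), for those without a peak in all libraries, for those with the highest and lowest rank and for 1 of each role. Other values were picked after they were seen. The members, the lists and the motifs were chosen with earlier results of these data known. The distance of the summit from a start, and the ranking by pileup, were added after seeing the data.

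Replicate numbers did not pair the libraries: deviations from the group means of libraries with the same number correlated by -0.063 to 0.0595 over 18 pairs, none above 0.1. Alternatives changed the window, the ranked measure, the depth, the GC trend, the scale, the centring and the merging of peaks, added a replicate block, and left out each library. Promoter sequences were not at hand for Hsp90aa1, Manf, Hspa8, Hsp90ab1, Atf6 and Hspa9.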

Additional observations from a re-analysis of the deposited data

How the results depend on the processing

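The count of these genes called in each of the 12 libraries was 35 under every window, threshold and list length tried and with each library left out. The counts of rank calls moved most with the measure that was ranked: by −log10 p they were 12 in CPT1a knockout, 8 in KAT2a knockout and 9 in the acetate group against scramble (3524, 2452 and 2698 of all genes), and by recovered pileup, chosen after seeing the data, 16, 14 and 12 (5225, 4501 and 4483 of all genes), with 2 between acetate and CPT1a knockout. In CPT1a knockout the count was 3 with the GC trend removed, 1 higher and 2 lower (1045 of all genes). Of the 5 calls of the main fit, only that of Pdia4 was among them. On percentiles without normal scores the count was 3 (1067 of all genes), and Pdia4 had an adjusted p of 0.0569 in limma. At equal calling depth the count was 6 in KAT2a knockout (1038 of all genes) and 2 in the acetate group against scramble (1111). In that last comparison it was 2 with the GC trend removed (572 of all genes) and 0 on percentiles (637). With a replicate block the count was 3 in CPT1a knockout (883 of all genes), 1 in KAT2a knockout (284) and 2 in the acetate group against scramble (431). However, 2 of 12 libraries correlated best with their own number, and the numbers pair nothing. The block moved no count of width calls by over 1.5 times. Width calls were 27 in CPT1a knockout, 12 in KAT2a knockout and 14 in the acetate group against scramble without centring (6679, 2088 and 3339 of all genes). In KAT2a knockout they were 7 with a window of 2000 bp (2012 of all genes) and 7 with peaks within 500 bp merged (1899). In the acetate group against scramble they were 4 with peaks merged (2026 of all genes) and 2 with the strongest peak alone (1049). Without centring the width difference changed sign for Atf4 (-0.31 in CPT1a knockout, -0.12 with acetate), Hspa8 (-0.14), Sdf2l1 (-0.10) and Sesn2 (-0.038), since the median shift of all genes is then kept. Leaving out 1 library gave 1 to 2 rank calls in CPT1a knockout, 0 in KAT2a knockout, 0 between acetate and CPT1a knockout and 0 to 1 in the acetate group against scramble, and 2 to 6, 2 to 5, 0 and 2 to 7 width calls. These ranges stand without the counts over all genes, so they cannot be read as particular to the 35 genes. For the other moved counts the cause was not tested. A call with 3 libraries a group and lists of unequal depth rests on few degrees of freedom, and a peak that only a deep library could call is missing from shallow lists.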
